A study of Oikopleura dioica with 8 samples.

Results

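A group of 85 gene models of *Oikopleura dioica* had at least 2 times as much total RNA in both release samples as in both stasis samples. They were chosen on total RNA alone: at least 100 reads over the total RNA libraries, and a smaller release value at least 2 times the larger stasis value, in reads per 1000000 reads of the library (RPM). Of 17212 gene models, 14534 had that many reads and 86 met the fold, which is 0.592% of those with enough reads. One of the 86, a pyruvate kinase, was left out, and 85 remained. The rule also set aside gene models annotated as myosin heavy chain, tropomyosin or myosin-binding protein, but none of those annotated at hand met the fold. In the opposite direction, 93 gene models had total RNA at least halved on release by the same rule.

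The samples were pools of whole animals. Release animals had been in stasis until day 7 and were collected 30 min after transfer to normal density. Stasis animals were collected on day 7 while still crowded and fed reduced doses, and both states had passed through the same growth arrest. The study describes release by dilution with food present, so density and food cannot be told apart in this contrast. Each state had 2 biological replicates, and each replicate gave a total RNA library and a library of ribosome protected fragments (RPF), the pieces of mRNA that ribosomes shield from nuclease. In whole animals, a change in a transcript per cell cannot be told apart from a change in the number of cells that carry it.

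*O. dioica* is a planktonic tunicate that lives inside a filtering house, a mucous structure secreted by the surface epithelium and built from cellulose and from proteins called oikosins. Its growth arrest is reversible, and stasis is the name of the arrested state. Many of its mRNAs receive a short spliced leader at the 5′ end by *trans*-splicing, and such mRNAs include many that act in growth. RPF reads report how much mRNA ribosomes occupy, and RPF divided by total RNA, both in RPM, gives translational efficiency (TE).

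The 4 total RNA libraries held 15801289 and 22839600 reads on release and 13931680 and 13041273 reads in stasis. The RPF libraries were far smaller and unequal, with 1240592 and 308680 reads on release and 1488886 and 261745 reads in stasis. In RPF, 7 gene models that each took over 1% of a library held 19.9% and 41.7% of the reads on release and 23.8% and 57.1% in stasis, and none of them was a member. The second RPF library of each state was shallower, and held a larger share in those gene models, than both first libraries. Of the gene models tested, 28.1% had no read in the second release and 38.4% in the second stasis RPF library. In the first libraries this was 6.81% on release and 6.77% in stasis. The second stasis RPF library was the most extreme in depth and in that share, and RPF values are given with and without it. Summed muscle markers, as total RNA, reached 6388 RPM in the first release sample and 2806 RPM in the second, against 2460 and 2422 RPM in stasis.

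Total RNA of the members was higher on release by construction, so it is described here without a test. Reads on the 85 gene models made up 2.06% and 2.47% of total RNA reads on release, against 0.802% and 0.876% in stasis. The summed muscle markers were highest in the first release sample and the members' share in the second. The part of muscle in the members' values was not tested, and 66 of the members had no annotation at hand. The median member stood at 39.9 and 44.3 RPM on release and at 15.9 and 18.5 RPM in stasis, while the median of the 14595 gene models with enough reads for a test was 22.3 and 22.0 RPM on release and 24.8 and 23.6 RPM in stasis. The fold of the release mean over the stasis mean had a median of 2.57 with quartiles at 2.35 and 2.95, and the largest was 4.75. On the log2 scale the median was 1.36 for the members and -0.16 for all gene models tested.

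The members covered a wide range of RPM, which is not corrected for the length of a gene model and so does not rank transcripts by number. Release means ran between 2.14 and 4758 RPM with a median of 43.8 RPM, and stasis means between 0.706 and 1777 RPM with a median of 17.2 RPM. On release 26 members averaged at least 100 RPM and 11 averaged under 10 RPM, whereas 32 averaged under 10 RPM in stasis. The strictest ratio, the smaller release over the larger stasis value, was close to the limit for most: its median was 2.17, 12 members reached 2.5 and 3 reached 3.

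The replicates of each state were not equally alike. Total RNA of a member in the second release sample was a median of 1.13 times that in the first, and 70 of 85 members were higher in the second. In stasis the median ratio of the second to the first sample was 1.02 and 44 members were higher in the second, but 17 members differed by more than 1.5-fold between the stasis replicates, against 2 between the release replicates. Over all gene models tested, the medians were 0.992 on release and 0.961 in stasis, and 6948 of 14592 were higher in the second release sample. Differences of more than 1.5-fold were again more frequent between the stasis replicates (2006 of 14594 gene models) than between the release replicates (628 of 14592).

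**Figure D1:**
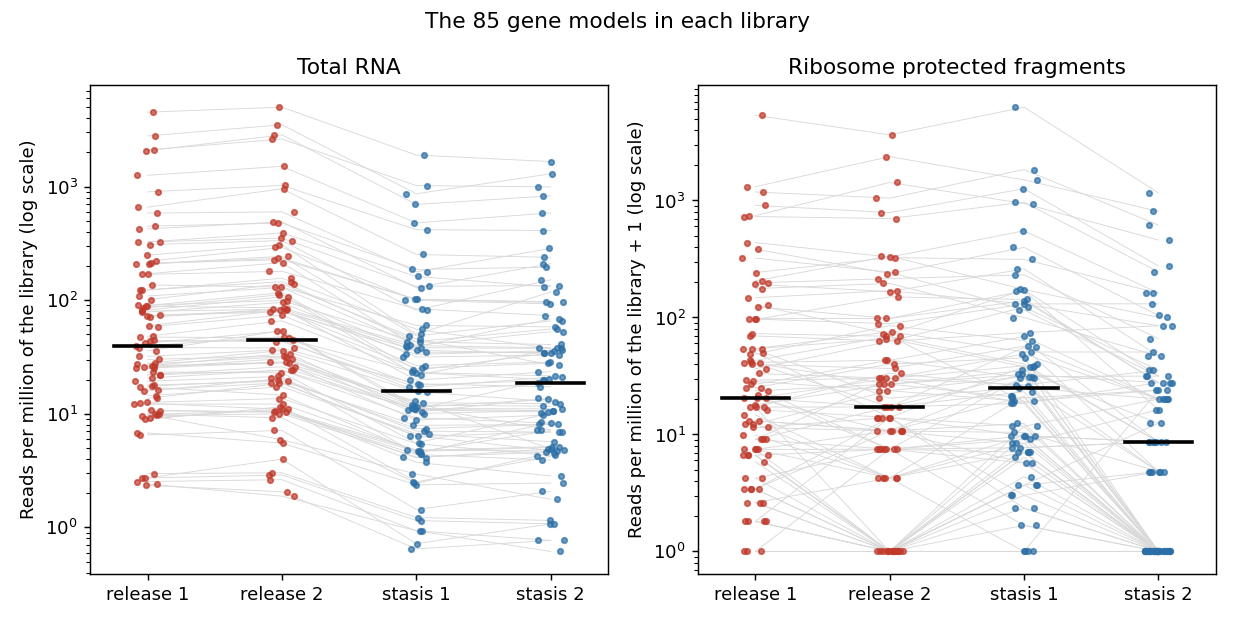
Total RNA (left, RPM, log scale) and RPF (right, RPM with 1 added, log scale) of the 85 gene models in each library. Points are gene models, grey lines join the same gene model and black bars are medians: in total RNA the release medians, 39.9 and 44.3 RPM, lie above the stasis medians, 15.9 and 18.5 RPM, whereas in RPF the release medians lie between those of the stasis libraries.

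Names were at hand for few members. Of the 85, 19 stood in the portion of the study's annotation used here and 66 did not, and 7 of the 19 carried a name that says what the product is. These 7 included a transcription factor, a lectin, a house protein, a sugar nucleotide enzyme and proteins of ubiquitin ligation, vesicle traffic and the cell surface. Each is given below with its total RNA first and its RPF reads after it.

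Early growth response 3 (GSOIDT00017299001) is a zinc finger transcription factor whose vertebrate counterpart is induced rapidly after stimulation of a cell. Its total RNA was 41.9 and 53.5 RPM in release samples, against 10.98 and 20.2 RPM in stasis samples. In proportion the stasis replicates differed by more than the release replicates did. The rule itself required the higher stasis value to lie below both release values. Its RPF counts, 3 and 3 reads on release against 11 and 0 in stasis, were too low to compare.

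The rhamnose binding lectin (GSOIDT00008554001) belongs to a family of carbohydrate-binding proteins known from fish eggs and invertebrates. Its total RNA was 171 and 214 RPM in release samples, against 38.9 and 68.2 RPM in stasis samples, a 3.59-fold difference of the means and the largest among the named members. Its RPF did not separate the states, at 127 and 71.3 RPM in release libraries against 171 and 30.6 RPM in stasis libraries. The stasis libraries thus held both the highest and the lowest of its RPF values.

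Oikosin 4c (GSOIDT00008939001) is a structural protein of the house. Its total RNA was 424 and 489 RPM in release samples, against 129 and 210 RPM in stasis samples. RPF was 383 and 236 RPM in release libraries, against 396 and 103 RPM in stasis libraries. The states thus overlapped in RPF, while in total RNA the rule kept them apart.

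UDP-glucose pyrophosphorylase 2 (GSOIDT00004497001) makes UDP-glucose, the sugar donor for glycogen and cellulose synthesis. It was the only one of the 19 annotated members listed as *trans*-spliced and also the only one listed as an oocyte transcript. Its total RNA was 211 and 228 RPM in release samples, against 102 and 97.0 RPM in stasis samples. RPF of this gene model, which the rule did not use, was apart between the states. It was 176 and 194 RPM in release libraries against 98.7 and 45.8 RPM in stasis libraries.

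Kelch-like 9 (GSOIDT00003987001) is in vertebrates an adaptor that brings substrates to a cullin ubiquitin ligase. Total RNA of this gene model was 17.5 and 19.9 RPM in release samples, against 7.39 and 8.05 RPM in stasis samples. The RPF libraries held 19 and 4 of its reads on release and 13 and 2 in stasis. In RPM both release libraries were above both stasis libraries, but on few reads.

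An ADP ribosylation factor (GSOIDT00008785001), a small GTPase of a family that directs membrane traffic, had total RNA of 14.4 and 17.3 RPM in release samples, against 6.68 and 5.67 RPM in stasis samples. A leucine-rich repeat neuronal protein 3-like product (GSOIDT00013451001), named after a vertebrate membrane protein of neurons, had 9.62 and 9.98 RPM in release samples, against 4.16 and 4.60 RPM in stasis samples. Both were low and both had close replicates. Their RPF reads numbered 10 and 2 on release against 7 and 0 in stasis for the ADP ribosylation factor, and 8 and 2 on release against 9 and 0 in stasis for the neuronal protein.

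The members with the largest strict ratio were all without a name. GSOIDT00010729001 led, with total RNA of 209 and 243 RPM in release samples against 48.5 and 65.7 RPM in stasis samples and a smaller release value 3.18 times the larger stasis value. GSOIDT00002159001 had the largest fold of means, 4.75, with 35.7 and 53.8 RPM in release samples against 11.6 and 7.21 RPM in stasis samples. GSOIDT00006318001 had 70.4 and 84.0 RPM in release samples, against 19.8 and 23.5 RPM in stasis samples. The other 2 of the first 5 had few reads: GSOIDT00018124001 stood at 6.52 and 7.14 RPM on release against 1.44 and 2.07 RPM in stasis, and GSOIDT00002112001 at 2.53 and 2.63 RPM on release against 0.933 and 0.613 RPM in stasis.

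A few members carried many of the reads. GSOIDT00001705001 had total RNA of 4515 and 5002 RPM in release samples, against 1894 and 1660 RPM in stasis samples, and alone gave 21.9% and 20.3% of the members' total RNA reads on release and 23.6% and 18.95% in stasis. GSOIDT00015044001 followed with 2790 and 3503 RPM in release samples, against 864 and 1294 RPM in stasis samples. GSOIDT00015789001 had 2070 and 2849 RPM on release against 696 and 829 RPM in stasis. All 3 varied between replicates by less than they differed between states, which the rule favoured.

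Below these came GSOIDT00016402001, at 2103 and 2620 RPM in release samples against 1020 and 993 RPM in stasis samples, and GSOIDT00009048001, at 1257 and 1506 RPM in release samples against 479 and 586 RPM in stasis samples. None of the 5 members with the highest total RNA RPM on release had a name in the annotation at hand.

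The limit of 2 cut through a continuous range of ratios. Just inside were GSOIDT00013804001 and GSOIDT00004295001 at a ratio of 2.01 each and GSOIDT00001780001, also at 2.01. Just outside were GSOIDT00006223001 and GSOIDT00006866001 at 1.99 each and GSOIDT00011129001 at 2.00 after rounding. GSOIDT00006223001, for example, had 26.7 and 32.2 RPM in release samples against 12.1 and 13.4 RPM in stasis samples, values like those of GSOIDT00013804001 inside the limit, 21.9 and 24.1 RPM in release samples against 10.9 and 10.7 RPM in stasis samples.

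Some members had adjacent identifier numbers, although the files do not state that number order follows position in the genome. There were 4 such pairs, and the share expected over all gene models was not computed. Among them, GSOIDT00006417001 had total RNA of 448 and 477 RPM in release samples, against 187 and 195 RPM in stasis samples. The next number, GSOIDT00006418001, had 26.0 and 28.5 RPM on release against 12.8 and 4.91 RPM in stasis. GSOIDT00017298001, next to early growth response 3, had total RNA of 73.3 and 81.1 RPM in release samples, against 33.3 and 35.9 RPM in stasis samples. GSOIDT00002526001 had 12.2 and 12.2 RPM on release against 4.74 and 5.14 RPM in stasis, and its neighbour GSOIDT00002527001 had 12.3 and 10.9 RPM on release against 4.09 and 4.91 RPM in stasis. This pair also had the same RPF counts in every library, 7 and 0 reads on release and 9 and 0 in stasis, so it is reported as uncertain: whether the 2 gene models are near-identical copies that split reads was not tested.

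The lectin GSOIDT00008554001 lay close in number to the pair GSOIDT00008550001 and GSOIDT00008551001. The first of the pair had total RNA of 85.8 and 112 RPM in release samples, against 21.9 and 36.5 RPM in stasis samples, and the second 12.6 and 13.6 RPM in release samples, against 5.46 and 4.29 RPM in stasis samples. The numbers between and around them belonged to gene models with ratios of 0.454 to 0.933. GSOIDT00008553001, for example, had 49.3 and 51.8 RPM in release samples, against 109 and 61.7 RPM in stasis samples. GSOIDT00008552001 overlapped between the states, with 11.8 and 13.4 RPM in release samples against 22.8 and 12.7 RPM in stasis samples.

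Members were set beside gene lists built from annotation words, to show which other products of the same kind changed. The lists draw only on the annotation rows at hand, whereas the background is over all gene models tested. In the edgeR quasi-likelihood fit of total RNA, 993 of the 14595 gene models tested, 6.8%, were higher on release at an adjusted p under 0.05. House and epidermis genes held 5 called higher and 0 called lower of 16 tested: the member oikosin 4c and 4 oikosins that missed the 2-fold rule. The rule fixed the direction of the member, and without it 4 of 15 were higher. Oikosin 4a (GSOIDT00015848001) had 504 and 496 RPM in release samples, against 328 and 302 RPM in stasis samples. Oikosin 7c (GSOIDT00007620001) had 55.8 and 60.4 RPM on release against 29.7 and 26.8 RPM in stasis, and oikosin 6a (GSOIDT00009191001) had 125 and 127 RPM on release against 98.7 and 80.1 RPM in stasis.

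A second gene model annotated as oikosin 4c (GSOIDT00008547001) had 11.6 and 13.7 RPM in release samples, against 7.11 and 5.60 RPM in stasis samples. The gene model of the list with the highest RPM, an oikosin-like product (GSOIDT00014788001), did not pass and its states overlapped, with 5948 and 5128 RPM in release samples against 5489 and 5482 RPM in stasis samples. The total RNA of the house list as a whole summed to 11556 and 10556 RPM on release, against 9674 and 9434 RPM in stasis.

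Among 33 transcription factors tested, 3 were higher and 0 lower on release. The member early growth response 3, whose direction the rule fixed, was among these, and without it 2 of 32 were higher, against 6.8% of all gene models tested. Ovo-like 2 (GSOIDT00015854001), a zinc finger factor of epithelia in vertebrates, had total RNA of 25.6 and 28.9 RPM in release samples, against 8.54 and 13.6 RPM in stasis samples. T-box 2 (GSOIDT00007455001), a developmental regulator, had 22.2 and 23.1 RPM in release samples, against 12.2 and 16.1 RPM in stasis samples. The median total RNA log2 fold change of the list was -0.05, against -0.02 over all gene models tested, so the factors did not move together.

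No member was found in the other lists, but the 66 members outside the annotation at hand could not be placed in any list. Glycan synthesis genes had 8 of 36 higher and 0 lower, matrix and adhesion genes 7 of 48 higher and 0 lower, and secreted and lysosomal hydrolases 6 of 36 higher and 1 lower. Digestive genes had 1 higher and 1 lower of 25, genes of cilia and sperm 0 higher and 3 lower of 42, and muscle genes 1 higher and 1 lower of 28. Although few muscle genes passed the test, their median total RNA log2 fold change was 0.97, with 25 of 28 above 0, and it was the largest of the 11 lists. The release samples differed in this list, which summed to 6388 and 2806 RPM on release against 2460 and 2422 RPM in stasis. The median was 0.56 for house and epidermis genes, 0.38 for oocyte and meiosis genes, 0.32 for matrix and adhesion genes, 0.31 for glycan synthesis genes, 0.23 for hydrolases, 0.08 for digestive genes and -0.22 for genes of cilia and sperm. Transporters had 2 higher and 1 lower of 43 and lipid metabolism genes 3 higher and 1 lower of 24, with medians of -0.02 and 0.29. The summed total RNA of the digestive list was 2362 and 2496 RPM on release against 2144 and 2159 RPM in stasis, and that of the cilia and sperm list 2167 and 2049 RPM on release against 2187 and 2828 RPM in stasis. The oocyte and meiosis list, with 2 higher and 1 lower of 10, summed to 1027 and 1063 RPM on release against 705 and 780 RPM in stasis. In total RNA no marker of these cell type lists was at 0 in a library, except 1 house gene in the second stasis sample. The part of these cell types in the members' values was not tested.

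RPF reads were not used to choose the members, and they did not separate the states. Of all RPF reads, 1.42% (95% Wilson interval 1.40% to 1.44%) and 1.39% (1.35% to 1.43%) lay on the members in release libraries, against 1.71% (1.69% to 1.74%) and 0.515% (0.488% to 0.543%) in stasis libraries. The intervals cover counting error only. The first stasis library had the highest share of the 4 and the second stasis library the lowest, so the release libraries fell between them. Release averaged 1.26 times stasis, and without the second stasis library this ratio was 0.819, whereas without the first it was 2.73.

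The order of the libraries in RPF was also compared without the gene models that took most reads. Outside the 7 that dominated the RPF libraries, the members held 1.78% and 2.38% of RPF reads in release libraries, against 2.25% and 1.20% in stasis libraries. Without GSOIDT00001705001, which gave 37.6% and 26.3% of the members' RPF reads on release and 36.6% and 22.6% in stasis, the remaining members held 0.887% and 1.02% of RPF reads on release, against 1.09% and 0.399% in stasis. The second stasis library stayed lowest in both cases, and the states overlapped in both. Outside the 7, however, the second release library and not the first stasis library was the highest.

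**Figure D2:**
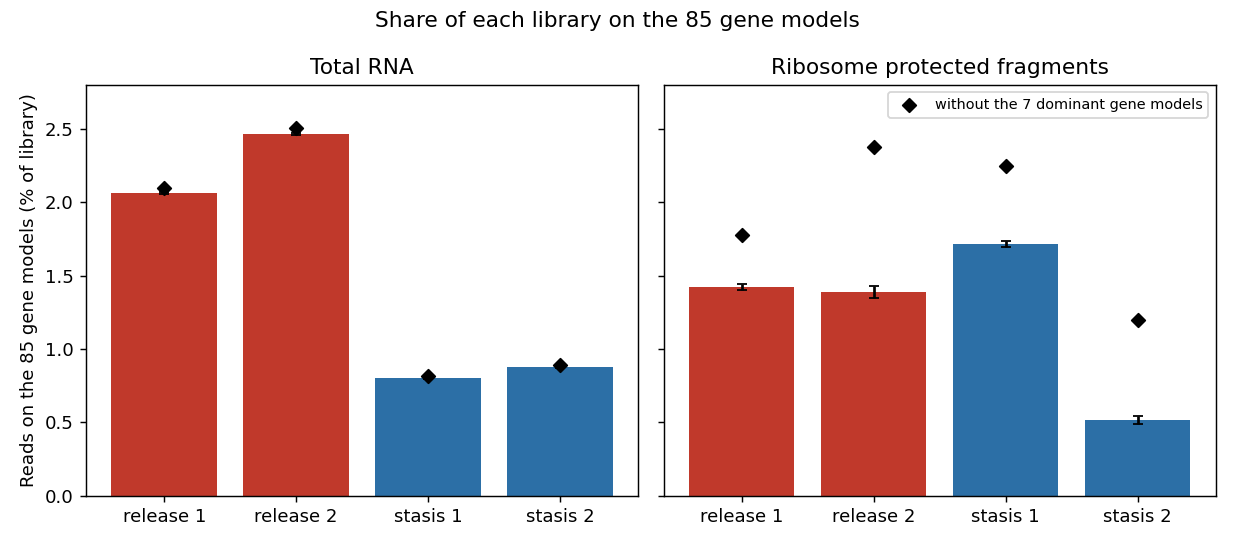
Percent of the reads of each library that fell on the 85 gene models, in total RNA (left) and RPF (right). Bars are shares of all reads with 95% Wilson intervals and diamonds are shares after the 7 dominant gene models were removed: by the rule total RNA separates release (2.06% and 2.47%) and stasis (0.802% and 0.876%), and in the RPF bars the stasis libraries (1.71% and 0.515%) lie on either side of release (1.42% and 1.39%). Among the RPF diamonds the second release library is the highest (2.38%).

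Of the 10 members with most RPF reads, 7 had both release libraries between the stasis libraries. GSOIDT00001705001 had 5349 and 3641 RPM in release RPF libraries, against 6279 and 1161 RPM in stasis RPF libraries. GSOIDT00009048001 had 1182 and 1046 RPM on release against 1839 and 615 RPM in stasis, and GSOIDT00005244001 had 908 and 787 RPM on release against 1261 and 275 RPM in stasis. In each of them the release libraries agreed more closely than the stasis libraries did and lay inside the stasis range.

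The same held for GSOIDT00015789001, with RPF of 729 and 699.8 RPM on release against 966 and 245 RPM in stasis, for GSOIDT00005843001, with 436 and 327 RPM on release against 549 and 160.5 RPM in stasis, and for GSOIDT00017620001, with 191 and 165 RPM on release against 259 and 45.8 RPM in stasis. The exceptions were GSOIDT00015044001, at 1311 and 2371 RPM on release against 1500.0 and 806 RPM in stasis, GSOIDT00016402001, at 741 and 1425 RPM on release against 941 and 458 RPM in stasis, and GSOIDT00006417001, at 241 and 324 RPM on release against 313 and 160.5 RPM in stasis. In these 3 the second release library was the highest, but the first lay below the first stasis library, so the states overlapped. None of the 10 had both release libraries above both stasis libraries.

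**Figure D3:**
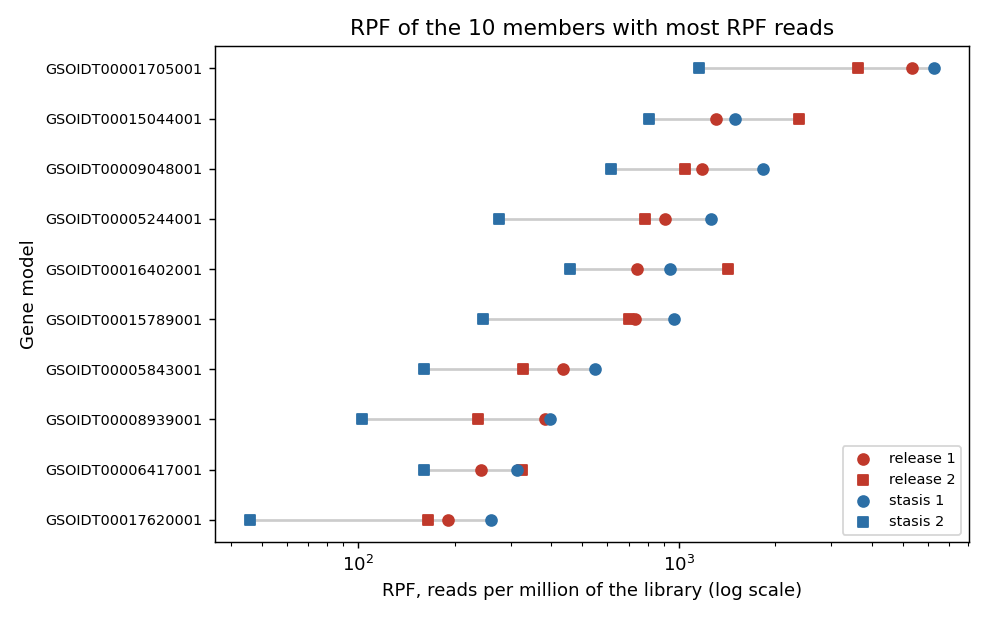
RPF (RPM, log scale) of the 10 members with most RPF reads, one row per gene model. Circles are the first and squares the second replicate of release (red) and stasis (blue): the second stasis library is the lowest in every row and the first stasis library lies to the right of the first release library in every row.

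Over all members, both release RPF libraries lay between the second stasis library (below) and the first stasis library (above) in 27 of 85, or 31.8%, against 12.4% of all gene models tested. The second stasis library was the lowest of the 4 for 55 members, 64.7%, against a background of 41.6%. In the first replicate, RPF was higher on release than in stasis for 29 members, 34.1%, against 55% of all gene models. In the second replicate it was higher on release for 62 members, 72.9%, against 48.9%. Members and background were not matched for depth. In the second release library the RPF median was 16.2 RPM for members and 9.72 RPM for all gene models tested, of which 28.1% had no read there. The comparisons by replicate number thus pointed opposite ways, but these numbers were not taken as pairing. Taken over all RPF reads, the stasis libraries held both the highest and the lowest share on the members.

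Both release RPF libraries were above both stasis RPF libraries for 14 members, or 16.5%, and this background was 13.9% of all gene models tested. Both were below for 6 members, or 7.06%, against a background of 7.5%. The remaining 65 overlapped. Among the 61 members with at least 20 RPF reads, 10 (16.4%) were above and 2 (3.28%) below, against backgrounds of 14.7% and 7.63%. With all RPF libraries in use, the shares of members were near those of all gene models, except the lower share below among these 61. Without the second stasis library, 15 of 85 members had both release libraries above and 39 had both below the remaining stasis library. Of the 14595 gene models tested, 2997 and 4640 did. Without the first stasis library 58 members were above and 10 below, against 6425 and 2862 of all gene models.

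The 14 members whose RPF was higher in both release libraries included 4 of the 7 with a name: UDP-glucose pyrophosphorylase 2, kelch-like 9, the ADP ribosylation factor and the leucine-rich repeat neuronal protein 3-like product. These had 437, 38, 19 and 19 RPF reads in all. The neuronal protein was apart by 6.45 RPM in the lower release library against 6.04 RPM in the higher stasis library. Of the 14, 10 had at least 20 RPF reads. Several of the 14 were apart by little. GSOIDT00010133001 had RPF of 146.7 and 168 RPM in release libraries against 129.6 and 129.9 RPM in stasis libraries, and GSOIDT00007956001 had 53.2 and 74.5 RPM in release libraries against 49.7 and 49.7 RPM in stasis libraries. GSOIDT00004683001 had 205 and 334 RPM in release libraries against 173 and 99.3 RPM in stasis libraries. Of the 6 that were lower in both release libraries, GSOIDT00010455001 had 27.4 and 22.7 RPM in release libraries against 30.2 and 30.6 RPM in stasis libraries, and 4 of the 6 had fewer than 20 RPF reads.

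In the edgeR quasi-likelihood fit of RPF over all 14595 gene models, 0 members were higher and 0 were lower on release at an adjusted p under 0.05, against backgrounds of 0% higher and 0.00685% lower. The smallest adjusted p among the members was 1. At an unadjusted p under 0.05, 2 members were higher, GSOIDT00009990001 and GSOIDT00016926001, and 1 was lower, GSOIDT00014636001, and the backgrounds were 0.363% and 0.74%. The last of these had 0 reads in both release libraries and 0 and 6 reads in the stasis libraries. DESeq2 called 0 members and had 1 at an unadjusted p under 0.05. On simulated RPF counts of the same depth and spread, the edgeR test recovered 0 of 100 gene models changed by 2 on the log2 scale, so a 4-fold change in RPF was not detectable by it.

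The median RPF log2 fold change of release over stasis was 0.15 for the members and 0.03 for all gene models tested. It was above 0 for 52 of the 85 members, or 61.2%, and for 54% of all gene models. With at least 20 RPF reads the medians were 0.15 for 61 members and 0.04 for all, and the members spanned -0.90 to 1.82. Total RNA of the same members had a median of 1.51 in edgeR, against -0.02 for all gene models. Scaled by library totals in place of TMM, the RPF median over all gene models moved to 0.15 and that of the members to 0.20. Without the first stasis library the RPF medians were 1.60 for members and 0.69 for all gene models, a difference of 0.90, and without the second they were -0.15 for members and -0.02 for all, a difference of -0.13.

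**Figure D4:**
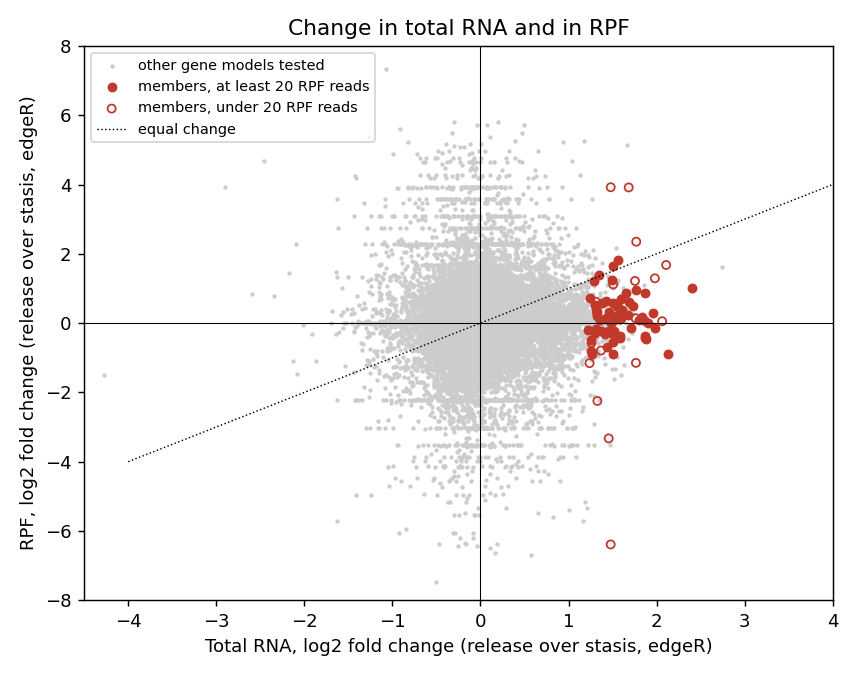
Log2 fold change of release over stasis in total RNA (x axis) and in RPF (y axis), both from edgeR. Filled and open red circles are members with at least 20 and with fewer than 20 RPF reads and grey points are the other gene models tested: the members lie at 1.22 to 2.40 in total RNA, where the rule placed them, and scatter around 0 in RPF with a median of 0.15.

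Individual members differed in RPF. GSOIDT00009990001 had the highest RPF change among members with at least 50 RPF reads: 321 and 243 RPM in release RPF libraries against 115 and 30.6 RPM in stasis RPF libraries, a log2 fold change of 1.82 (SE 0.64) with an edgeR adjusted p of 1. In total RNA it had 220.1 and 291 RPM in release samples, against 99.6 and 92.8 RPM in stasis samples. Its RPF was apart between the states, whereas in total RNA the rule required this. Leaving out each library in turn gave RPF log2 fold changes of 1.34 to 2.77.

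GSOIDT00016926001 had RPF of 71.7 and 68.0 RPM on release against 18.1 and 22.9 RPM in stasis, a log2 fold change of 1.65 (SE 0.78). Total RNA of this gene model was 109 and 129 RPM in release samples, against 39.98 and 52.8 RPM in stasis samples. In RPF its replicates were close in both states, the states did not overlap, and leaving out each library gave RPF log2 fold changes of 1.18 to 1.98.

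GSOIDT00017123001 had 66 and 20 RPF reads on release against 55 and 0 in stasis, a log2 fold change of 1.39 (SE 0.77). UDP-glucose pyrophosphorylase 2 (GSOIDT00004497001) had 1.22 (SE 0.64) and GSOIDT00002159001 had 1.02 (SE 0.77). In GSOIDT00017123001 and GSOIDT00002159001 the second stasis library held 0 and 2 reads. Without it their log2 fold changes were 0.71 and 0.52, and without the first stasis library they were 8.17 and 2.38, the first of which is no bound because no stasis read was left. For UDP-glucose pyrophosphorylase 2 leaving out each library gave 0.97 to 1.60. None passed the edgeR test, with adjusted p of 1 for each.

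At the other end, GSOIDT00013867001 had a log2 fold change of -0.90 (SE 0.88) with 19.3 and 16.2 RPM in release RPF libraries against 54.4 and 3.82 RPM in stasis RPF libraries. GSOIDT00003780001 had -0.68 (SE 1.14) with 15 and 3 RPF reads on release against 44 and 0 in stasis. Both overlapped between the states, and leaving out each library gave -1.57 to 1.75 for GSOIDT00013867001 and -1.38 to 5.77 for GSOIDT00003780001. The upper ends came without the first stasis library. The 1.75 then rested on 1 stasis read, and the 5.77 is no bound because no stasis read was left. GSOIDT00010729001, the member with the largest ratio in total RNA, had -0.88 (SE 0.70) and did not overlap: its RPF was 35.5 and 61.6 RPM on release, against 73.2 and 84.1 RPM in stasis. Without any 1 library its RPF change stayed negative, between -1.45 and -0.38.

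TE joins both measures, and since the rule fixed the direction of its denominator, TE is given without a test. Over the summed reads of the members, TE was 0.690 and 0.562 in release samples, against 2.14 and 0.588 in stasis samples. The first stasis sample was far above the rest, and the second lay between the release samples. With the 7 dominant gene models left out of the RPF totals, this TE was 0.862 and 0.964 in release samples, against 2.81 and 1.37 in stasis samples. Both release samples then lay below both stasis samples, the direction that the rule favoured. The median TE of a member was 0.470 and 0.352 in release samples and 1.39 and 0.369 in stasis samples, while for all gene models tested it was 0.515 and 0.329 in release samples and 0.447 and 0.198 in stasis samples. In the first stasis sample the members were thus above other gene models by more than in any other sample.

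TE was lower in both release samples than in both stasis samples for 23 of 85 members and higher for 2. Over all gene models tested, 7.24% were lower and 18.4% were higher, but nothing is read from the comparison, because the rule placed total RNA of every member at least 2 times higher on release and so favoured a lower TE. GSOIDT00010729001 was among the lower ones, with TE of 0.170 and 0.253 in release samples against 1.51 and 1.28 in stasis samples. GSOIDT00016926001 was one of the 2 higher ones, with TE of 0.659 and 0.526 in release samples against 0.454 and 0.435 in stasis samples, and the other was GSOIDT00014421001, with 3 RPF reads in all. The pooled TE of release was 0.459 times that of stasis, and without the first stasis sample it was 1.06 times.

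Depth limited these RPF values for many members. The median member had 24 and 5 RPF reads in release libraries, against 36 and 2 in stasis libraries, and 3 and 16 members had no read in the release libraries, against 4 and 34 in the stasis libraries. Over the RPF libraries together, 47 members had at least 50 reads, 37 had at least 100 and 1 had none.

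The annotated members were mostly not *trans*-spliced. Of the 19 in the annotation at hand, 18 were not listed as *trans*-spliced, while 78.0% of the 1998 rows at hand were not. Among the gene models halved on release, 24 of 26 in the same rows were not listed as *trans*-spliced. Likewise 18 of the 19 were not listed as oocyte transcripts, against 80.7% of all rows. The rows at hand are the top of a table ordered by the response to an mTOR inhibitor, so they are no random sample of the gene models.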

How the data were processed

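Per the labels, the data were total RNA and ribosome protected fragments (RPF) of whole animals, made with ARTSeq reagents after rRNA depletion. The authors mapped reads with TopHat2 2.0.13 after removing rRNA and tRNA reads with Bowtie2 2.1.0, and the deposited values are raw counts per gene model from featureCounts. All 8 columns were matched to samples by name. RPM were taken over column totals. The members and gene lists were chosen with earlier results of these data known, and the members by total RNA of the same contrast. RPF was tested on release against stasis with edgeR 4.0.16 (TMM, quasi-likelihood, Benjamini-Hochberg over all 14595 gene models with at least 100 reads in the 8 libraries) in R 4.3.3, and DESeq2 1.42.0 was an alternative. The fit was tested on simulated counts. Named members were those with an informative annotation, the 5 with the largest ratio, the 5 with the highest total RNA, the 10 with most RPF reads, the 3 on each side of the limit, and, with at least 50 RPF reads, the 5 highest and 3 lowest RPF changes. Further members that were apart in RPF, gene models with adjacent numbers, and oikosins and transcription factors named beside the members, were chosen after their values were seen. The sources name different kits for total RNA extraction. No sequences are printed, as no identifier was matched in the reference table used here (0 matches).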

Additional observations from a re-analysis of the deposited data

How the results depend on the processing

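Of RPF calls, 0 were made among the members under every setting run with edgeR or DESeq2. The number of gene models that met the rule was 157 on TMM-scaled values, 527 at a fold of 1.5 and 3 at a fold of 3, and leaving out each sample in turn gave 181 to 374. Leaving out each library gave RPF medians between -0.15 and 1.60, release over stasis RPF shares between 0.819 and 2.73, and pooled TE ratios between 0.293 and 1.06. It gave 15 to 58 members with RPF above stasis, against 2997 to 6425 of 14595 gene models tested. It gave 9 to 39 members below, against 1716 to 4640 of those gene models. This alternative for TE and for RPF separation was chosen after seeing the data. With at least 20 RPF reads, 2 members (3.28%) lay below, against a background of 7.63%. The replicate numbers come from the labels and give only 2 pairs, so they were not taken as pairing: deviations of same-numbered samples correlated at 0.198 in total RNA and 0.681 in RPF, and with a replicate block the RPF median was 0.25 and 0 members were called.

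Signs of uncalled RPF log2 fold changes turned when 1 library was left out, with ranges of -0.45 to 1.52 for GSOIDT00001705001, -1.38 to 5.77 for GSOIDT00003780001, -0.52 to 1.20 for GSOIDT00005244001, -0.48 to 0.82 for GSOIDT00005843001, -0.23 to 0.48 for GSOIDT00006417001, -0.32 to 1.15 for GSOIDT00008939001, -0.67 to 0.44 for GSOIDT00009048001, -1.57 to 1.75 for GSOIDT00013867001, -0.069 to 1.07 for GSOIDT00015044001, -0.38 to 1.13 for GSOIDT00015789001, -0.17 to 1.07 for GSOIDT00016402001 and -0.49 to 1.53 for GSOIDT00017620001. For GSOIDT00005843001 it was also -0.0023 on library totals without the 7 dominant gene models. The cause of these turns was not tested. Without the first stasis library, the 5.77 of GSOIDT00003780001 had no stasis read left and is no bound, and the 1.75 of GSOIDT00013867001 rested on 1 stasis read.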
